A study of Homo sapiens with 6 samples.

Results

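The hypoxia, VEGFA and glycolysis genes described here are 10 of the 21863 gene symbols measured in Hep G2, a cell line from a human liver tumor. They were picked by symbol as genes of hypoxia and glycolysis, with earlier results of these data known, and all 10 were found and had an RPKM (a read number divided by the length of the gene and by the mapped reads of the library) above 0 in every library. They comprise the transcription factor subunits *HIF1A* and *EPAS1*, the secreted factors *VEGFA* and *ADM*, the mitophagy gene *BNIP3* and the glycolysis genes *HK2*, *ALDOA*, *PGK1*, *ENO1* and *LDHA*. The cells were transfected with dsRNA mimicking *miR-195*, with dsRNA mimicking *miR-497* (both 5 nM, RNA taken after 24 hours) or were non-transfected (NT, labelled 0 hours). No gene was deleted and no cells were placed under low oxygen in any group. From each condition 1 total RNA library (mRNA-seq) and 1 library of RNA precipitated with an antibody to Argonaute 2, the protein that carries miRNAs to their targets (Ago2-IP-seq), were sequenced, 6 libraries in all.

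With 1 library per condition there is no replicate, no test between conditions was possible, and a difference below describes 2 libraries. The NT cells received no control dsRNA, so an effect of a mimic cannot be told apart from one of transfection or of time. The intervals given are 95% intervals from read numbers, cover counting error only, and hold no variation between cultures. Both mimics were compared with the same NT libraries, so their differences from NT are not independent. The libraries held an estimated 24800000 to 31100000 mapped reads for total RNA and 10700000 to 16900000 for Ago2-IP. Genes whose whole reads could be inferred took 68.9% to 72.1% and 16.4% to 26.1% of these, and the remaining genes are not counted. The label of a liver-derived line was checked on 10 hepatocyte markers, all with an RPKM of at least 1 in each total RNA library and with summed RPKM of 8706 to 8831. Of 10 markers of fibroblasts, endothelial cells and leukocytes, 4 or 5 were at 0 in total RNA and only *LYZ*, which encodes lysozyme, passed an RPKM of 1 (749, 973 and 766 in NT, *miR-195* and *miR-497*), the other 9 reaching at most 0.412. The part of *LYZ* in any result was not tested.

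As background, cells sense oxygen through hydroxylation of HIF alpha subunits. With oxygen present the hydroxylated subunit is bound by the VHL protein and destroyed. At low oxygen it is stable, pairs with ARNT and binds DNA at a short core motif near genes of glucose uptake, glycolysis, mitophagy and vessel growth. HIF regulation is thus mainly one of protein, and the RNA level of *HIF1A* or *EPAS1* does not measure it. VEGFA is the main signal for the growth of blood vessels, which liver tumors have in abundance, and the *miR-195* family has been described as acting on *VEGFA* in liver cancer.

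The mature strands of the mimicked miRNAs are shown because their shared seed (bases 2 to 8, in capitals) decides which 3′UTR matches were searched. They were read from RefSeq (GRCh38.p14, chromosome 17, minus strand).
hsa-miR-195-5p: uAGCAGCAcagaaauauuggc
hsa-miR-497-5p: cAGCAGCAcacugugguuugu
The seeds were the same, and 12 of the 21 positions were identical.

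*VEGFA*, *HK2* and *BNIP3*, 3 of the 10 genes, held a match to the seed (TGCTGCT) in the 3′UTR of at least 1 transcript, beside 25.264% of the 16387 symbols with a 3′UTR. The next lines give the stretch around each match on the strand of the gene (GRCh37), with the matched bases in capitals.
VEGFA: gccattttatttttctTGCTGCTAaa
HK2: gtctggtgtagctcctcTGCTGCTcc
BNIP3: gcacaggcgccctgtggTGCTGCTgt
The *VEGFA* match lay at chr6:43752575-43752582, at base 276 of the 1925 bases of the canonical 3′UTR, and was found in 8 of 15 transcripts with a 3′UTR. It was the only one of the 3 followed by an A, the 8-base form held by 5.211% of symbols. The *HK2* match (chr2:75119992-75119998) lay at base 1924 of 2418 in the canonical 3′UTR. The *BNIP3* match (chr10:133783931-133783937) was found in 1 of 3 transcripts with a 3′UTR and not in the canonical one. *LDHA* and *ALDOA* held only the 6-base match GCTGCT, in *ALDOA* outside the canonical transcript. In *LDHA* it lay in the canonical 3′UTR and was followed by an A, a form that was not counted separately. With these, the genes with a 6-base match came to 5 of 10 beside 46.134% of symbols. *HIF1A*, *EPAS1*, *ADM*, *PGK1* and *ENO1* held none. A match is a match of letters, and binding at it was not measured.

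**Figure D1:**
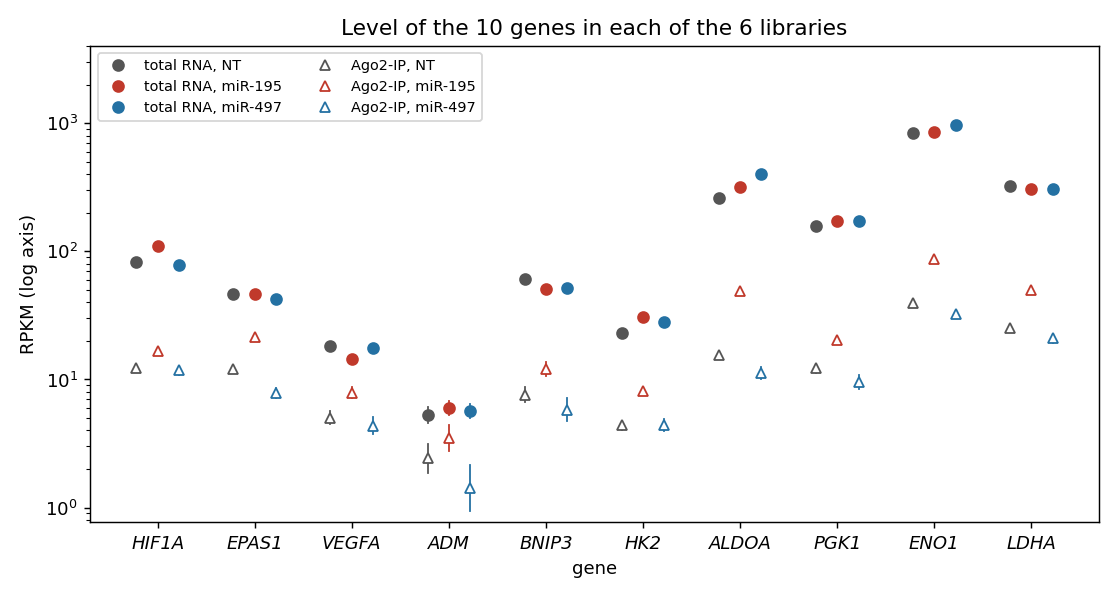
Level of each of the 10 genes in the 6 libraries, as RPKM on a log axis, with total RNA as filled circles, Ago2-IP as open triangles and bars for the 95% counting interval (hidden by the symbol where short). *ENO1* is the highest gene and *ADM* the lowest in all 6 libraries, and for every gene the *miR-195* library is the highest of the 3 Ago2-IP libraries.

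In NT total RNA the levels per length ran from 832 RPKM for *ENO1* to 5.27 RPKM for *ADM*. The order was *ENO1*, *LDHA* (325 RPKM), *ALDOA* (263), *PGK1* (158), *HIF1A* (83.1), *BNIP3* (60.9), *EPAS1* (46.3), *HK2* (23.2), *VEGFA* (18.1) and *ADM*, and each neighbour differed from the next beyond the counting interval. The order was the same in the total RNA with either mimic except that *ALDOA* stood above *LDHA* there. The glycolysis genes other than *HK2* held the top 4 places in all 3 total RNA libraries. In Ago2-IP the order was compressed: in NT *HIF1A* (12.2 RPKM), *PGK1* (12.2) and *EPAS1* (12.0) could not be separated within counting error, nor could *VEGFA* (5.03) and *HK2* (4.39). *HK2* and *VEGFA* were likewise inseparable in both Ago2-IP libraries with a mimic. RPKM of *ENO1*, *LDHA*, *PGK1* and *ALDOA* are uncertain to the extent that 36-base reads are shared with their processed pseudogenes or related genes.

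*HIF1A* (chr14:62162231-62214977, GRCh37, plus strand) encodes the oxygen-regulated subunit of HIF-1. Its total RNA level was 83.1 RPKM in NT (8339 reads), 110 with *miR-195* (13116 reads) and 78.5 with *miR-497* (9864 reads). The *miR-195* library was thus the high one, 1.33-fold above NT (interval 1.29 to 1.36), and *miR-497* lay 0.945-fold from NT (0.918 to 0.973). In RNA of a whole culture, fewer cells with an RNA and less of it per cell cannot be told apart. Among the 1876 genes with 30 to 100 RPKM in NT total RNA that could be compared, 98.9% had a lower ratio of *miR-195* to *miR-497* than *HIF1A* (1.40-fold, interval 1.37 to 1.44). In Ago2-IP *HIF1A* stood at 12.2 RPKM in NT, 16.7 with *miR-195* and 11.7 with *miR-497*. Its *miR-195* change there (log2 0.45) was close to the median of all genes (0.48).

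*EPAS1* (chr2:46520806-46613836, plus strand) encodes HIF-2 alpha, which in liver-derived cells acts on a partly different set of genes. Its total RNA level hardly moved, at 46.3 RPKM in NT, 46.1 with *miR-195* and 42.1 with *miR-497*. The Ago2-IP levels were 12.0, 21.5 and 7.85 RPKM, so that the *miR-195* library was 1.79-fold above NT (interval 1.65 to 1.93) and the *miR-497* library 0.654-fold (0.585 to 0.732). Between the Ago2-IP libraries of both mimics the ratio was 2.73-fold (2.46 to 3.04), where the median gene had 1.59-fold.

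*VEGFA* (chr6:43737921-43754224, plus strand), the vessel growth factor and the gene with the 8-base match, stood at 18.1, 14.4 and 17.5 RPKM in total RNA of NT, *miR-195* and *miR-497*. The *miR-195* library was the low one, 0.797-fold of NT (interval 0.743 to 0.855), and with *miR-497* the ratio was 0.968 with an interval that holds 1 (0.907 to 1.03). *VEGFA* is the one gene of the 10 whose whole reads could not be recovered, and its intervals rest on reads estimated from the length of its canonical transcript (1532 to 1965 in total RNA). The log2 change with *miR-195* was -0.33, and 17.5% of the 3449 genes with 10 to 30 RPKM in NT total RNA had a lower one. Among the 674 genes with the 8-base match it was not extreme: their median log2 change was -0.14, and 219 of them (32.5%) lay below *VEGFA*. With *miR-497* the median of the 671 such genes was -0.12, and 396 of them (59.0%) lay below *VEGFA* (-0.05). In Ago2-IP *VEGFA* stood at 5.03, 7.90 and 4.36 RPKM, or about 307, 390 and 168 reads. The *miR-195* Ago2-IP library was 1.57-fold above NT (1.35 to 1.82), which after the median of all genes (log2 0.48) was subtracted left 0.18 on the log2 scale with an interval from -0.04 to 0.39.

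The 5 genes whose pattern over the 6 libraries was most like that of *VEGFA*, by root mean square difference of centred log2 RPKM among 8581 genes, were *KLC1* (0.047), *SMCR7L*, *LARP1*, *CNNM3* and *SAP130* (0.060). None of them is on the lists of hypoxia or glycolysis genes. Of the other 9 genes *EPAS1* came nearest at rank 1182 and *ENO1* was farthest at rank 8404. The pattern includes the gap between Ago2-IP and total RNA, log2 -1.85 for *VEGFA* and -4.38 for *ENO1* in NT. For *VEGFA* this gap was larger than any change with a mimic. Shared regulation was not tested.

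*ADM* (chr11:10326620-10328944, plus strand), which encodes the vasodilator peptide adrenomedullin, was the lowest of the 10 genes, at 5.27, 5.97 and 5.68 RPKM in total RNA of NT, *miR-195* and *miR-497* (189, 254 and 255 reads). No difference between these libraries exceeded counting error. In Ago2-IP it had 59, 69 and 22 reads (2.42, 3.50 and 1.43 RPKM), and the interval of the *miR-497* ratio was wide, 0.361 to 0.961.

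*BNIP3* (chr10:133781188-133795471, minus strand) encodes an outer mitochondrial membrane protein that directs mitochondria to autophagy. It was lower with both mimics in total RNA, at 60.9 RPKM in NT, 50.5 with *miR-195* and 52.2 with *miR-497*. The ratios to NT were 0.829 (interval 0.782 to 0.879) and 0.856 (0.809 to 0.906), and the mimic libraries did not differ from each other beyond counting error. In Ago2-IP it stood at 7.63, 12.0 and 5.81 RPKM.

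*HK2* (chr2:75061254-75120486, plus strand) encodes the hexokinase of many tumors, which phosphorylates glucose in the first step of glycolysis. Its total RNA level was 23.2, 31.0 and 28.1 RPKM in NT, *miR-195* and *miR-497*, higher with both mimics (1.34-fold, interval 1.28 to 1.39, and 1.21-fold, 1.16 to 1.26). With *miR-195* the 3317 genes with a 7-base match had a median log2 change of -0.07, and 86.8% of them had a lower change than *HK2* (0.42). With *miR-497* the median of the 3331 such genes was 0.01, and 69.5% lay below *HK2* (0.28). In Ago2-IP *HK2* stood at 4.39, 8.11 and 4.42 RPKM, the *miR-195* library alone being high.

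*ALDOA* (chr16:30075485-30081778, plus strand), the aldolase that splits fructose bisphosphate, showed the widest span of the 10 genes in both kinds of library. In total RNA of NT it stood at 263 RPKM (18110 reads), with *miR-195* at 318 (25987 reads) and with *miR-497* at 400 (34489 reads). The *miR-497* library was 1.52-fold above NT (1.49 to 1.55), and 97.1% of the 442 compared genes of 100 to 300 RPKM had a lower change. In Ago2-IP the order of the mimics was the reverse, at 15.4, 49.4 and 11.2 RPKM in NT, *miR-195* and *miR-497* (724, 1875 and 332 reads). The *miR-195* Ago2-IP library was 3.20-fold above NT (2.94 to 3.49) and 4.42-fold above *miR-497* (3.93 to 4.97). The median gene had 1.39-fold and 1.59-fold. Its order of the mimics was reversed too, with log2 ratios of *miR-195* to *miR-497* of -0.07 in total RNA and 0.67 in Ago2-IP.

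*PGK1* (chrX:77166236-77384792, plus strand), the phosphoglycerate kinase that makes the first ATP of the pathway, stood at 158, 173 and 172 RPKM in total RNA. Its Ago2-IP levels were 12.2, 20.3 and 9.53 RPKM. Its total RNA was 1.10-fold (1.07 to 1.13) and 1.09-fold (1.06 to 1.12) of NT with *miR-195* and *miR-497*. *ENO1* (chr1:8921059-8939249, minus strand), enolase, stood at 832, 850 and 970 RPKM in total RNA. In Ago2-IP it had 39.8, 87.3 and 32.4 RPKM. Its *miR-195* Ago2-IP library was 2.19-fold above NT (2.04 to 2.35). *LDHA* (chr11:18416107-18429972, plus strand), the lactate dehydrogenase subunit that turns pyruvate to lactate, was slightly lower with both mimics in total RNA, at 325, 307 and 307 RPKM. In Ago2-IP it stood at 25.3, 49.7 and 20.9 RPKM, a ratio of 1.96 for *miR-195* (1.82 to 2.12). *LDHB*, the gene of the other main subunit, was at or near 0 in total RNA (0.0253, 0 and 0.0202 RPKM) and is named here after its values were seen.

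**Figure D2:**
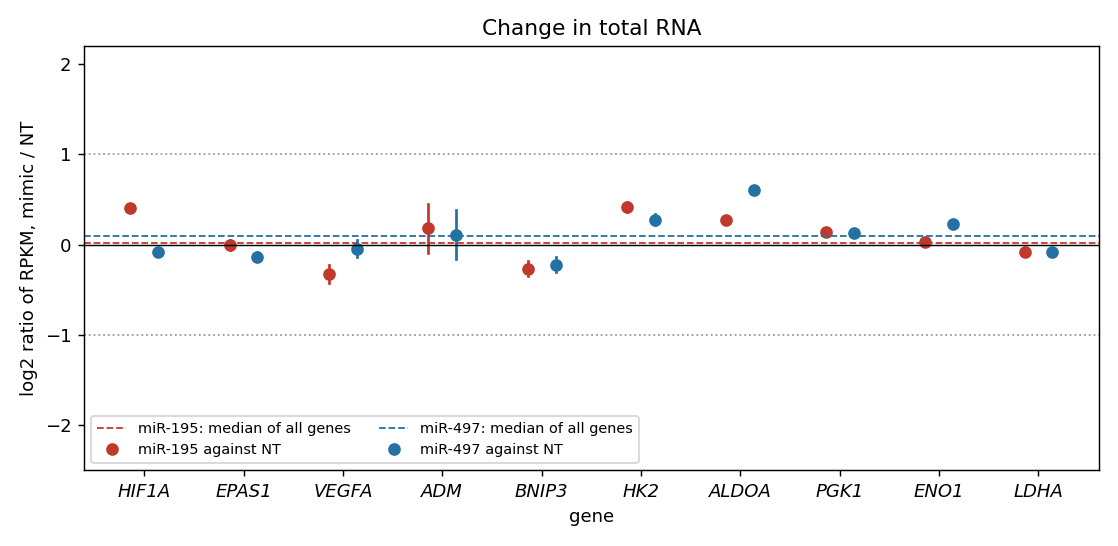
Change of the 10 genes in total RNA as log2 ratio of RPKM, mimic to NT, with 95% counting intervals, the median of all genes (dashed) and the 2-fold lines (dotted). All points lie between -0.33 and 0.61, inside the 2-fold lines, and *VEGFA* with *miR-195* is the lowest.

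The first comparison asks whether a mimic changed the level of these RNAs in the cell. None of the 10 genes differed by 2-fold or more in total RNA in any of the 3 pairs of libraries. The background was that, among all genes with RPKM above 0, 5.81% were at least 2-fold higher and 3.2% at least 2-fold lower when *miR-195* was set against NT. For *miR-497* against NT the shares were 6.67% and 2.11%, and between the mimics 3.12% and 3.64%. These shares come largely from low genes: of the 5874 genes with at least 10 RPKM in NT total RNA, 0.255% were 2-fold higher and 1.11% lower with *miR-195*, so a count of 0 among 10 mostly abundant genes is near the background. For *miR-195* the median log2 change was 0.08 over the 10 genes and 0.02 over all genes, and for *miR-497* these medians were 0.03 and 0.09. With *miR-195*, *HK2* (0.42) and *HIF1A* (0.41) were highest and *VEGFA* (-0.33) and *BNIP3* (-0.27) lowest. With *miR-497*, *ALDOA* (0.61) was highest and *BNIP3* (-0.22) lowest.

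The other genes of the pathway were taken from fixed lists. Of 15 other glycolysis enzymes with at least 1 RPKM in both libraries, none was past 2-fold with either mimic, and 13 lay above the median of all genes with *miR-195* (median log2 0.17) and 12 with *miR-497* (0.32). *GAPDH* stood at 758, 857 and 1083 RPKM in total RNA of NT, *miR-195* and *miR-497*. Of 28 other hypoxia-induced genes none was past 2-fold, 18 lay above the all-gene median with *miR-195* (median 0.09) and 11 with *miR-497* (0.03). *AK4*, a mitochondrial adenylate kinase whose 3′UTR holds the 8-base match, had the lowest *miR-195* change of this list (log2 -0.79, from 18.9 to 11.0 RPKM) and is named after its values were seen. The other genes of this list with an 8-base match stood at log2 0.15 (*PDK1*), 0.36 (*SLC2A3*) and 0.11 (*PFKFB4*) with *miR-195*. Whether the match had a part in these changes was not tested. *EPO*, the erythropoietin gene, was lower with *miR-195* (1.74 RPKM) than with *miR-497* (3.57), a ratio of 0.488. Of the HIF partners and regulators, *CITED2*, an inhibitor that competes for the coactivator p300, was 2.15-fold higher with *miR-195*, from 0.690 to 1.49 RPKM. Its lower library held only 36 reads, and the interval was wide, log2 0.55 to 1.66. The other 7 of that list with at least 1 RPKM lay between log2 -0.18 and 0.42 with *miR-195*. *VHL* stood at 30.2, 31.5 and 30.1 RPKM and *EGLN1*, the main HIF prolyl hydroxylase, at 15.0, 13.2 and 12.3.

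Of the VEGF receptor tyrosine kinase genes, *KDR* was at 0 in all 6 libraries, and *FLT1* and *FLT4* reached at most 0.0148 and 0.00533 RPKM. The coreceptor gene *NRP1* was detected in every library, at 2.66, 3.70 and 2.91 RPKM in total RNA of NT, *miR-195* and *miR-497*, and *NRP2* was lower (0.667, 0.414 and 0.469 RPKM). Among the ligands *VEGFB* stood at 8.72 RPKM in NT total RNA and *PGF* at 3.22, while *VEGFC* was at 0 in all libraries. The adrenomedullin receptor gene *CALCRL* reached at most 0.0162 RPKM, and of its partners only *RAMP2* passed 1 RPKM (8.57 in NT total RNA).

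**Figure D3:**
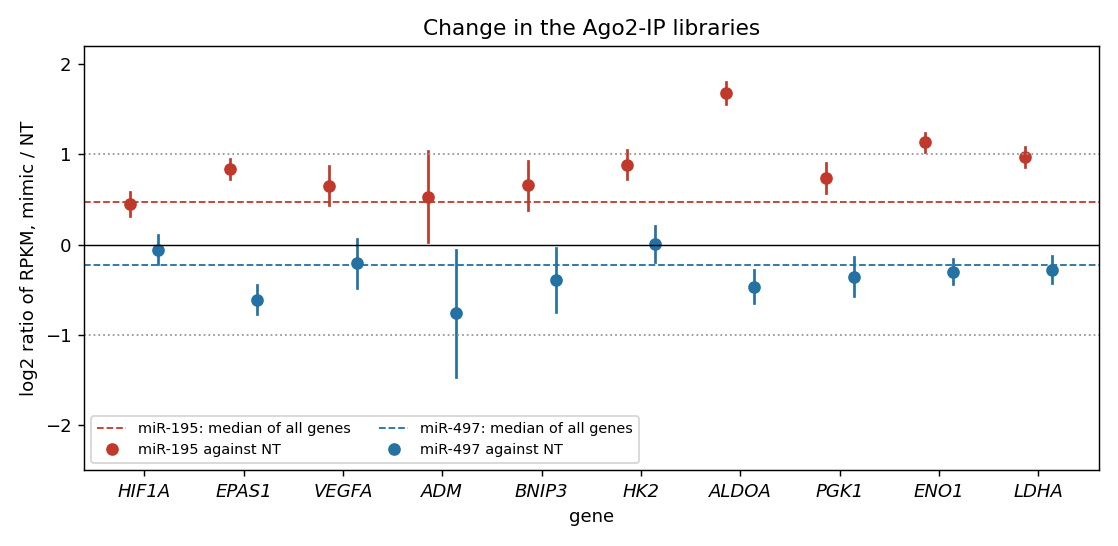
Change of the 10 genes in the Ago2-IP libraries as log2 ratio of RPKM, mimic to NT, with 95% counting intervals, the median of all genes (dashed) and the 2-fold lines (dotted). With *miR-195* all 10 points lie above 0 and the all-gene median is itself at 0.48, and *ALDOA* stands highest at 1.68.

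The second comparison asks which RNAs were bound to Ago2 more or less after a mimic was added. In the *miR-195* Ago2-IP library all 10 genes were above NT, with a median log2 change of 0.79. The same library was above NT for genes in general (median 0.48), so the changes are read relative to that shift. It also had the largest share of mapped reads on genes with inferred reads, 26.1% beside 19.3% in NT and 16.4% in *miR-497* Ago2-IP. The part of this in the results was not tested. *ALDOA* and *ENO1*, 2 of 10 genes, were at least 2-fold higher, beside 23.7% of all genes, and the share was 31.3% among the 549 genes with at least 100 RPKM in NT total RNA. Relative to the median of all genes, *ALDOA* was higher by 1.20 on the log2 scale, *ENO1* by 0.66, *LDHA* by 0.50, *HK2* by 0.41 and *EPAS1* by 0.36. *HIF1A* lay at -0.03, and the intervals of *HIF1A*, *VEGFA*, *ADM* and *BNIP3* held the median. Abundant genes shifted more in this library, and against genes of like level only *ALDOA* was far out, above 95.7% of 442 genes, while *LDHA* and *ENO1* were above 52.3% and 66.4% of the 107 genes of at least 300 RPKM.

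In the *miR-497* Ago2-IP library 9 of the 10 genes were below NT, *HIF1A* and *VEGFA* within counting error, and *HK2* was level with it (1.01-fold, interval 0.878 to 1.15). None was past 2-fold, beside 3.48% of all genes higher and 6.27% lower, and the median log2 change was -0.33 against -0.23 for all genes. *EPAS1* lay farthest below that median with an interval clear of it, by -0.39 (-0.55 to -0.22). Between the mimics, 7 of 10 genes were at least 2-fold higher with *miR-195* than with *miR-497* in Ago2-IP, beside 35.3% of all genes and 53.9% of those with at least 100 RPKM. The median log2 ratio was 1.17 for the 10 genes and 0.67 for all genes, and 7 becomes 1 (*ALDOA*) when each library is divided by its median RPKM.

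In the other lists the *miR-195* Ago2-IP library was at least 2-fold above NT for 4 of 10 glycolysis enzymes and 4 of 24 hypoxia-induced genes of at least 1 RPKM in both libraries, beside 23.7% of all genes. *SLC16A3*, the transporter that exports lactate, had 8.67 RPKM in NT, 32.7 with *miR-195* and 6.58 with *miR-497*. *SLC2A3*, a glucose transporter, had 30.5, 93.0 and 31.7 RPKM. It holds an 8-base match. The other genes of the hypoxia-induced list with one stood at log2 0.02 (*AK4*), -0.11 (*PDK1*) and 0.47 (*PFKFB4*) with *miR-195*, beside 0.48 for the median gene. The part of the match in these changes was not tested. *PLOD1* (5.16, 14.6 and 4.66 RPKM) and *GAPDH* (30.4, 81.6 and 22.5 RPKM) were highest with *miR-195* and lowest with *miR-497*. The median gene had that order too, at log2 0.48 and -0.23 against NT. With *miR-497* the stress-induced *DDIT4*, an inhibitor of mTORC1 signalling, was at least 2-fold lower, from 9.39 to 3.86 RPKM.

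The third comparison is the fold enrichment score, the Ago2-IP to total RNA ratio with a mimic divided by that ratio in NT, which sets the change in the precipitate against that in total RNA. A control precipitation was not analysed here. With *miR-195*, *ALDOA* (2.65-fold, interval 2.42 to 2.89), *ENO1* (2.14-fold, 2.00 to 2.30) and *LDHA* (2.08-fold, 1.92 to 2.25) were at least 2-fold up, 3 of 10 beside 20.4% of all genes and 33.3% of the abundant ones. The median log2 score of all genes was 0.47 and that of the 107 genes with at least 300 RPKM in NT total RNA was 1.005, and *ENO1* and *LDHA* scored above 60.7% and 55.1% of these, while *ALDOA* scored above 90.05% of the 442 genes of its range. *VEGFA* scored 1.97-fold (1.67 to 2.32), just short of 2-fold, and lay above 82.2% of 3448 genes of like level. Of the 646 genes with the 8-base match, whose median log2 score was 0.55, 73.5% lay below *VEGFA*. *HIF1A* scored 1.03-fold, and only 9.4% of the 1876 genes of like level scored lower. With *miR-497*, *ALDOA* alone was past 2-fold, at 0.476 (0.418 to 0.543), 1 of 10 beside 16.3% of all genes lower. The share was 9.3% among genes with at least 10 RPKM in NT total RNA and 6.56% among those with at least 100. *VEGFA* scored 0.896 with *miR-497*, with an interval of 0.734 to 1.09, and 42.4% of the 635 genes with the 8-base match lay below it. When each library was divided by its median RPKM, no gene of the 10 was past 2-fold with either mimic.

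**Figure D4:**
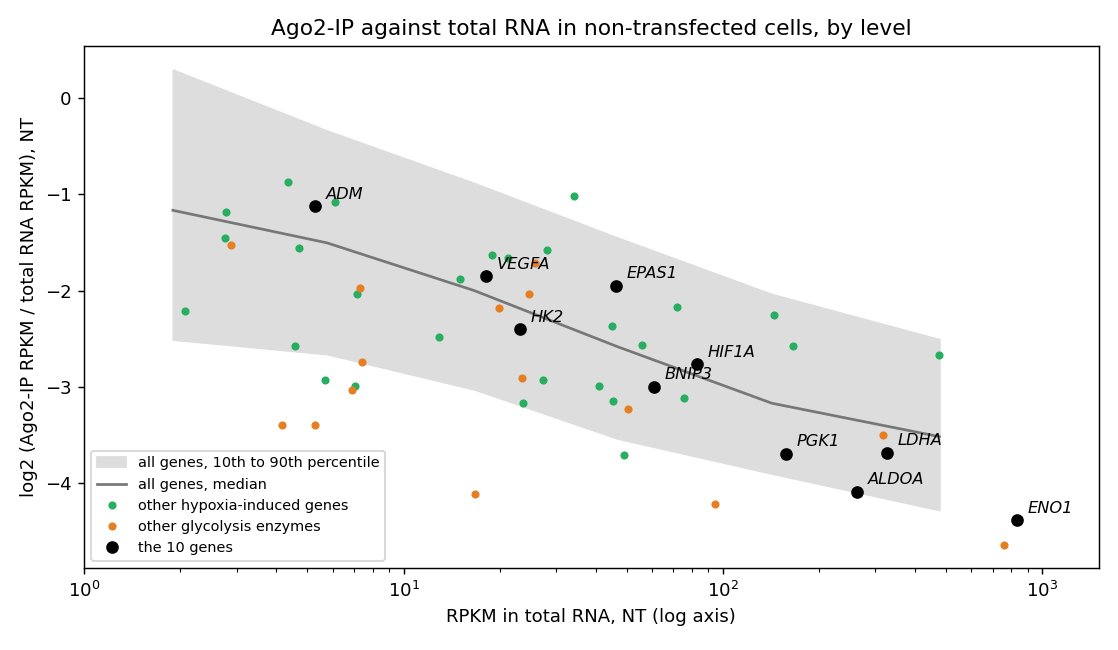
Log2 ratio of Ago2-IP to total RNA in NT cells against RPKM in NT total RNA (log axis; this level is also the denominator of the ratio) for the 10 genes (black), other listed genes with at least 1 RPKM in total RNA (green, orange) and all genes (line, median; band, 10th to 90th percentile, drawn through 6 ranges of level). The ratio falls with level for all genes, and *ALDOA* lies near the lower edge of the band while *EPAS1* and *ADM* lie above the line. *ENO1* lies to the right of the band, which ends at 476 RPKM.

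The last comparison sets Ago2-IP against total RNA without a mimic. All 10 genes had at least 2-fold lower RPKM in Ago2-IP than in total RNA, beside 69.1% of all genes and 98.2% of those with at least 100 RPKM. The glycolysis genes *ENO1* (log2 -4.38), *ALDOA* (-4.09), *PGK1* (-3.69) and *LDHA* (-3.68) were lowest, *BNIP3* (-3.00), *HIF1A* (-2.76) and *HK2* (-2.40) came between, and *EPAS1* (-1.95), *VEGFA* (-1.85) and *ADM* (-1.12) were highest. The median of all genes was -1.62, and only *ADM* lay above it. Against genes of like level the picture differed: *ALDOA* was above 5.4% and *ENO1* above 8.4% of their ranges, *LDHA* above 38.3%, *VEGFA* above 56.5% and *EPAS1* above 76.2%. All 11 other glycolysis enzymes with at least 1 RPKM in both libraries were also at least 2-fold lower in Ago2-IP (median -2.74), as were 23 of 24 hypoxia-induced genes (median -2.21).

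The same ratio with a mimic was computed in addition. With *miR-195*, 8 of 10 genes were at least 2-fold lower in Ago2-IP, and the exceptions were *VEGFA* (log2 -0.87) and *ADM* (-0.77). The share was 53.7% of all genes, 80% of those with at least 10 RPKM in NT total RNA and 93.6% of those with at least 100. With *miR-497* all 10 genes were at least 2-fold lower, beside 73.1%, 92.2% and 98.5% in the same order, and *ALDOA* reached -5.16. Both counts are thus near the shares for abundant genes. On the deposited scale *HIF1A* was nearly constant over the 3 conditions, at -2.76, -2.72 and -2.74 in NT, *miR-195* and *miR-497*. The median of all genes went from -1.62 to -1.09 and -1.94. Relative to that median *HIF1A* was not constant, at -1.15, -1.63 and -0.80.

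ACGTG, a form of the HIF core motif and the only one searched, was looked for on both strands of the RefSeq promoters (GRCh38.p14). The window ran from 250 bases before the start of a gene to 50 after it. ACGTG was present in 5 of the 9 genes of the 10 with an entry, *BNIP3*, *HK2*, *ALDOA*, *PGK1* and *LDHA*. The share was 21.608% of all 27305 promoters and 23.813% of those of the measured genes. *VEGFA* was the gene without an entry. The 3 stretches shown, on the strand of the gene with the motif in capitals, belong to abundant glycolysis genes and to *BNIP3*, and the base given is that of the motif relative to the start.
LDHA (chr11:18394469-18394489, plus strand, base -86): cgactcacACGTGggttcccg
PGK1 (chrX:78104038-78104058, plus strand, base -202): cgtgccggACGTGacaaacgg
BNIP3 (chr10:131982044-131982064, minus strand, base -133): cgcgccgcACGTGccacacgc
The match in *LDHA* and *BNIP3* is part of the palindrome CACGTG, which counts on each strand. *HIF1A*, *EPAS1*, *ADM* and *ENO1* had no match in this window, and binding was not measured. With *miR-195* the 5 genes with a match lay in total RNA between log2 -0.27 (*BNIP3*) and 0.42 (*HK2*), on both sides of 0.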

How the data were processed

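Total RNA and Ago2-IP RNA of Hep G2 cells were sequenced by the authors on a Genome Analyzer IIx as 36-base single reads, mapped to hg19 with ELANDv2 and converted to RPKM with CASAVA 1.7; the deposited values are 1 RPKM per gene and library. The gene annotation and which libraries had poly-A selection are not given in the sources used here, and the kit does not mark strand, so reads of a gene and of an antisense partner cannot be told apart. All 6 columns were matched to a library and 0 were left over; the lines of 28 symbols listed more than once were averaged.

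Ratios of RPKM were taken without a pseudocount over genes above 0 in the libraries used, and 2-fold marked a call. Whole reads were inferred from the steps of the RPKM for 90.49% of 15487 symbols tried and 9 of the 10 genes. On simulated reads 99.7% of 14014 genes were solved, of which 97.88% equalled the simulated reads. Seed matches used GENCODE release 44 on GRCh37, with symbols matched directly. Genes and lists were chosen with earlier results of these data known. Beside the 10 genes, at most 4 genes per list and comparison qualified by size, among those past 2-fold with at least 1 RPKM in a library. Not all that qualified are described, among them *ALDOC*, *HK1* and *BPGM*, with larger *miR-195* Ago2-IP changes than *GAPDH*. List genes at or near 0, and *GAPDH*, *VHL*, *EGLN1*, *LDHB*, *AK4*, *PDK1* and *PFKFB4*, were named after their values were seen. No p-value was calculated. The alternatives were other scalings, pseudocounts of 0.1 and 1, a minimum RPKM of 1, the first line of each symbol, a 1.5-fold threshold and other seed lengths. Comparison with genes of like level was added after the data were seen. Python 3.11.15, numpy 2.4.6, pandas 2.3.3 and matplotlib 3.10.9 were used.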

Additional observations from a re-analysis of the deposited data

Results flagged for a closer look

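For 2 genes the change with a mimic went one way in total RNA and the other way in Ago2-IP, on the deposited scale and after the median change of all genes was subtracted, with counting intervals on opposite sides. *LDHA* with *miR-195* was 0.942-fold of NT in total RNA and 1.96-fold in Ago2-IP, a difference of 1.06 on the log2 scale. Genes of its level (at least 300 RPKM in NT total RNA, 107 genes) did much the same, with median log2 changes of -0.04 in total RNA and 0.94 in Ago2-IP and a median difference of 1.005, and *LDHA* lay above 55.1% of them. *ALDOA* with *miR-497* was 1.52-fold of NT in total RNA and 0.724-fold in Ago2-IP, a difference of -1.07, and 5.66% of the 442 genes of its level had a lower one. With 1 library per condition the difference was not tested. On the deposited scale alone 3 genes went opposite ways with each mimic, *VEGFA*, *BNIP3* and *LDHA* with *miR-195* and *ALDOA*, *PGK1* and *ENO1* with *miR-497*.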

How the results depend on the processing

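No paired analysis was possible because each condition had 1 library of each kind, and leaving out a library ends its comparison. Dividing each library by its median RPKM changed the number of the 10 genes past 2-fold from 2 to 1 for *miR-195* Ago2-IP, from 7 to 1 for *miR-195* against *miR-497* in Ago2-IP, from 3 to 0 and from 1 to 0 for the *miR-195* and *miR-497* fold enrichment scores, and from 10 to 6 for Ago2-IP against total RNA in NT; dividing by the upper quartile gave 1, 1, 0, 0 and 5. In that last comparison the log2 ratio of *ADM* turned from -1.12 to 0.51 with the median and 0.81 with the upper quartile, and that of *VEGFA* from -1.85 to 0.083 with the upper quartile. These scalings remove the shift between libraries by construction. Of the 90 values of single genes, 72 others moved beyond their counting interval with the median and 65 with the upper quartile, without a change of direction among calls. A 1.5-fold threshold gave 1 gene for *miR-497* total RNA, 8 and 2 for *miR-195* and *miR-497* Ago2-IP and 7 and 2 for their scores. A 6-base seed match gave 5 genes and an 8-base match 1, instead of 3. Of the same 90 values none moved by more than that interval with a minimum RPKM of 1, the first line of each symbol or a pseudocount of 0.1, and 2 did with a pseudocount of 1. Depth limits *ADM* most, with 22 reads in the *miR-497* Ago2-IP library.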
